A study of Homo sapiens with 21 samples.

Results

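The nuclear-encoded respiratory chain genes were taken as every gene with an HNRNPK cluster whose name begins with NDUFA, NDUFB, NDUFC, NDUFS, NDUFV, ATP5, UQCR, COX4, COX5, COX6, COX7 or COX8, together with SDHA to SDHD. COX7B2 and names of the pseudogene form, ending in P and a number, were left out. The rule found 86 of the 18322 gene names with a cluster in any library. They were grouped by name alone, and the complexes given below follow the names. There were 37 genes with names of complex I subunits, 7 complex I assembly factors named NDUFAF and 4 genes of complex II. Another 8 fell under complex III, 12 under complex IV and 16 had ATP5 names. The other 2 were NDUFC2-KCTD14, a readthrough name, and NDUFA6-AS1, an antisense name.

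The respiratory chain sits in the inner mitochondrial membrane. Complexes I and II pass electrons from NADH and succinate to ubiquinone, complex III hands them on to cytochrome c, and complex IV reduces oxygen. The proton gradient built by complexes I, III and IV drives ATP synthase, also called complex V. Most of the subunits are encoded in the nucleus, so their mRNAs are transcribed and spliced there, and the proteins are imported into mitochondria after synthesis in the cytoplasm. HNRNPK is an RNA-binding protein with KH domains that prefer runs of C and that shuttles between nucleus and cytoplasm.

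The study asked how keratin 19, the product of KRT19, affects the RNAs that HNRNPK contacts in the cytoplasm. HNRNPK PAR-CLIP was performed in MDA-MB-231 cells, a mesenchymal-like triple-negative breast cancer line, either parental or carrying a CRISPR/Cas9 KRT19 knockout (KRT19 KO), and each line was split into a cytoplasmic and a nuclear fraction. In PAR-CLIP the cells take up 4-thiouridine, ultraviolet light crosslinks the protein to the labelled RNA, and the crosslinked base is read as a T-to-C change. There was 1 library per condition, so no difference below has a replicate check, no test was made and all intervals are 95% intervals for counting error only. Intervals on reads treat each read as independent, which was not tested. Unique reads were 18.6% to 45.2% of the reads of these genes by library, so those intervals may be too narrow. Whether the KRT19 KO line is 1 clone was not given in the sources used here, and genotype, clone and library preparation cannot be told apart. The antibody label names both HNRNPK and HNRNPJ.

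The libraries held 5551612 reads in clusters for the parental cytoplasm, 6216226 for the KRT19 KO cytoplasm, 3537577 for the parental nucleus and 3252800 for the KRT19 KO nucleus. Values are given in this order unless stated. A cluster is a group of overlapping reads with T-to-C changes, and the smallest deposited cluster held 5 reads, so a gene without a cluster lay below that minimum and cannot be called unbound. The 4 mesenchymal markers VIM, CD44, AXL and CAV1 had clusters in every library and together 909 to 1112 reads per 1000000 cluster reads (RPM). The 4 luminal or epithelial markers together had 5.31 to 48.3, and PGR had no cluster. KRT19 itself had 7, 5, 0 and 0 reads, too few to check the knockout. The nuclear RNA MALAT1 was at 1229, 842, 888 and 548 RPM and was not lower in the cytoplasm, whereas NEAT1 was at 226.4, 204, 789 and 1092.

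Respiratory chain genes carried 420, 383, 397 and 395 clusters with 6892, 7618, 6444 and 6343 reads. These reads were 0.124% (0.121 to 0.127), 0.123% (0.120 to 0.125), 0.182% (0.178 to 0.187) and 0.195% (0.190 to 0.200) of all cluster reads, so the share was higher in both nuclear libraries than in both cytoplasmic ones. As a share of clusters the genes made up 0.208%, 0.216%, 0.198% and 0.198%, values that lie close together. The fraction of member reads with a T-to-C change was 69.0%, 63.4%, 77.5% and 79.5%, and over all clusters it was 66.4%, 59.6%, 72.9% and 76.7%. Clusters were found on 70, 75, 66 and 69 of the 86 genes. All 4 libraries held a cluster of 52 genes (60.5%, against 51.9% of all gene names), while 13 genes had clusters in 3 libraries, 12 in 2 and 9 in 1. The 9 were ATP5D, ATP5H, ATP5L, COX6B2, COX7B, NDUFA3, NDUFA6, NDUFA6-AS1 and NDUFB4.

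The sequences at the strongest sites give the stretches of these transcripts where the HNRNPK clusters lay. The crosslinked base is not marked in them. A site is the union of clusters that overlap between libraries on the same strand. Shown are the first 30 bases, from the 5′ end, of the deposited cluster with most reads, for 6 of the 7 exonic sites of at least 150 reads and for 4 intronic sites of at least 250, in genome build hg19 and on the transcript's strand. Runs of 3 or more C are in capitals. The exonic sites come first.
NDUFA12 3′UTR, chr12:95365124-95365153, minus strand: tgtttaccattcactataattcacaattaa
ATP5E 3′UTR, chr20:57604940-57604969, minus strand: tttacatttttatttCCCCCacaaccacta
NDUFS1 3′UTR, chr2:206982617-206982646, minus strand: aacttattaatttccttcttaaaatcataa
NDUFS1 3′UTR, chr2:206986690-206986719, minus strand: cttaatacaaacttCCCatctcttacctct
ATP5G3 3′UTR, chr2:176042550-176042579, minus strand: atcagttagaatacttcaaatcagaatcac
NDUFS5 coding sequence, chr1:39500117-39500146, plus strand: aaagtacaCCCCtccacctcaccacattgg
The intronic sites follow.
NDUFV2 intron 1, chr18:9114173-9114202, plus strand: ttcttcctccttCCCCactttctttaacta
NDUFA10 intron 5, chr2:240953747-240953776, minus strand: tttctaatatCCCtcatcacttcaatctat
NDUFAF2 intron 1, chr5:60296997-60297026, plus strand: ctaactatttCCCCtatCCCacatccacag
UQCRC2 intron 12, chr16:21988774-21988803, plus strand: ttctttcttcataactaatttataCCCaaa

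A run of 3 C was present in 7 of the 10 windows shown, in all 4 intronic ones and in 3 of the 6 exonic ones, and the counts were the same over the whole clusters. NDUFA12, ATP5G3 and the first NDUFS1 site had none. Over all exonic clusters of respiratory chain genes, CCC occurred in 25% (15.3 to 37.0) in the parental cytoplasm, 26.0% (17.7 to 35.7) in the KRT19 KO cytoplasm, 21.1% (6.05 to 45.6) in the parental nucleus and 25% (9.77 to 46.7) in the KRT19 KO nucleus. Exonic clusters of all other genes, weighted to the same lengths, held it in 35.5%, 37.4%, 47.5% and 49.1%. The member value was the lower one in each library, and the comparison value lay inside the counting interval in the parental cytoplasm but outside it in the other 3 libraries. In intronic clusters CCC was found in 36.1%, 41%, 42.7% and 44.7% of member clusters and in 40.5%, 41.2%, 45.0% and 44.3% of the others, all inside the counting intervals.

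Exonic binding, meaning clusters that the deposited annotation places in the 3′UTR, the coding sequence or the 5′UTR, was found mostly in the cytoplasmic libraries. Exonic clusters held 23.1% (22.1 to 24.1) of member reads in the parental cytoplasm and 40.8% (39.7 to 41.9) in the KRT19 KO cytoplasm, against 5.40% (4.86 to 5.98) and 4.89% (4.37 to 5.45) in the nuclei. Over all named genes the same shares were 41%, 63.3%, 9.95% and 12.9%, higher than for respiratory chain genes in each library. Introns held 68.8%, 54.6%, 88.7% and 88.8% of member reads. Counted as clusters, the exonic shares were 16.2%, 26.1%, 4.79% and 6.08% for members and 16.8%, 27.1%, 7.23% and 7.78% for all named genes, so in the cytoplasm the gap to other genes was one of reads rather than of clusters.

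**Figure D1:**
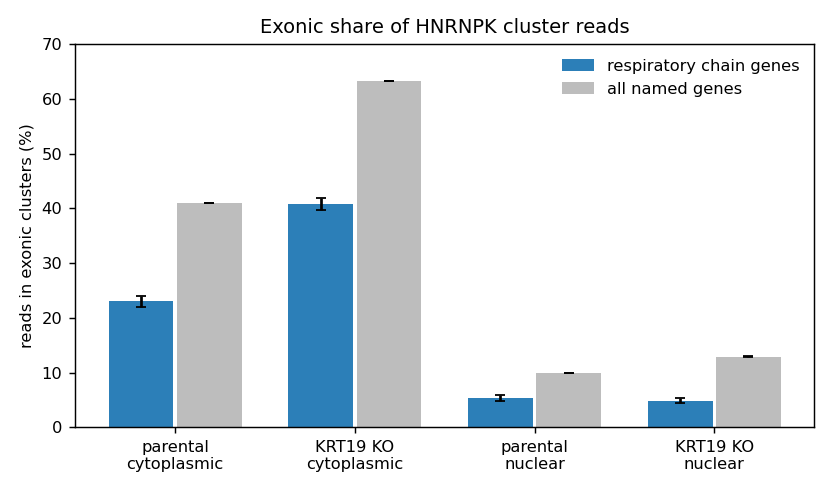
Bars give the percent of cluster reads in exonic clusters (y axis, %) in the 4 libraries for the 86 respiratory chain genes (blue) and for all named genes (grey), with 95% exact binomial intervals for counting error. The blue bar is at 23.1% for parental cytoplasm and 40.8% for KRT19 KO cytoplasm, near 5% in both nuclei, and below the grey bar in each library.

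An exonic cluster was present on 52 genes in at least 1 cytoplasmic library and on 24 in at least 1 nuclear library. Of these genes 33 had it in the cytoplasm only, 19 in both fractions and 5 in the nucleus only. Of all named genes with an exonic cluster 30.6% had it in the cytoplasm only and 7.71% in the nucleus only, beside 57.9% and 8.77% of members. No exonic cluster was found on 29 genes, and 20 of the 86 had intronic clusters and no other kind. An exonic cluster was thus on 57 of the 86 members, beside 9962 of all 18322 gene names. The number with intronic clusters only was not computed over all names.

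Complex I held the most exonic reads in sum, at 845, 1596, 100 and 151 over its 37 genes. In the cytoplasm this was 152 RPM for the parental line and 257 for the knockout. NDUFS1, the largest subunit of the NADH-oxidising arm, had the most exonic reads of any member when the libraries were summed, with 493, 352, 18 and 63. Almost all lay in its long 3′UTR of 9371 nt, where 16 separate sites were found. Lengths of 3′UTRs given here are counted from the last coding base and include the stop codon. The site at chr2:206982611-206982649, shown above, had 202, 0, 11 and 45 reads, and the site at chr2:206986687-206986719 had 172 reads in the parental cytoplasm and none elsewhere. Another, at chr2:206986157-206986188, had 94 reads in the KRT19 KO cytoplasm and none elsewhere, and its sequence matched 3 places in the genome within 2 mismatches. Both cytoplasmic libraries thus read this 3′UTR, yet 4 of the 16 sites were found in parental cytoplasm and 9 in KRT19 KO cytoplasm without the other, and 3 in both.

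NDUFA12 showed the opposite arrangement, with 1 site holding most of its signal. This small accessory subunit of complex I had 170 exonic reads in parental cytoplasm and 717 in KRT19 KO cytoplasm and none in either nucleus. Its 3′UTR is 110 nt long, and the site centred 82 nt after the last coding base carried 162 and 591 of those reads. A second site in its coding sequence had 8 and 93, and the sequence of that site matched 2 places in the genome within 2 mismatches. Per kb of mature transcript NDUFA12 had 54.5 exonic RPM in parental cytoplasm and 205 in KRT19 KO cytoplasm, the highest level of any member in both. For NDUFS1 the same length-scaled values were 7.62 and 4.86.

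NDUFS5, another accessory subunit of complex I, had all of its 151 exonic reads in the KRT19 KO cytoplasm, from 1 coding site at chr1:39500117-39500156 centred 29 nt before the end of the coding sequence. That sequence matched 2 places in the genome within 2 mismatches. NDUFB5, a subunit of the membrane arm, had 36 and 125 exonic reads in the cytoplasm and none in the nuclei. Its main site, at chr3:179341825-179341889, had 63 and 72 reads, but the parental cluster there was classed as stop codon and the KRT19 KO cluster as 3′UTR. The values for NDUFB5 therefore depend on that class.

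The 16 genes with ATP5 names had 378, 1046, 65 and 6 exonic reads. Without ATP5S and ATP5SL, names since given up for DMAC2L and DMAC2, the sums were 340, 1009, 65 and 6. ATP5G3 encodes subunit c, which forms the rotating ring in the membrane, and had 104 and 514 exonic reads in the cytoplasm and none in the nuclei. Of these, 99 and 506 lay in its 3′UTR of 2033 nt, which held 11 sites, of which 4 were found in both cytoplasmic libraries, 1 in parental cytoplasm and 6 in KRT19 KO cytoplasm. The site printed above, chr2:176042537-176042579, had 51 and 116 reads, and chr2:176042323-176042352 had 0 and 135. ATP5E, the epsilon subunit, had 114, 158, 59 and 0 exonic reads, and its strongest site held 102, 144, 38 and 0. In a newer annotation of the same build that site lies in an intron of the principal transcript, so its placement depends on the transcript model. ATP5B, the catalytic beta subunit, had 45, 88, 0 and 0 exonic reads, and ATP5C1, the gamma subunit of the central stalk, had 15, 78, 6 and 0. ATP5J2 was found with 84 exonic reads in the KRT19 KO cytoplasm and none in the other libraries.

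Complex IV genes had 224, 283, 138 and 85 exonic reads. COX7A2L, which takes part in joining complexes III and IV into supercomplexes, had 173, 138, 107 and 65. Its site at chr2:42577823-42577859 had 105 reads in the parental cytoplasm and none elsewhere. COX7C, a small subunit, had 32, 42, 31 and 20 exonic reads, nearly level across the libraries. Its site at chr5:85915966-85915997, with 0, 15, 31 and 13 of these reads, lay in an intron of the principal transcript of the newer annotation. The COX7C values, above all the nuclear ones, therefore depend on the transcript model. Complex II had 60, 37, 0 and 15 exonic reads and complex III had 54, 62, 0 and 0.

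**Figure D2:**
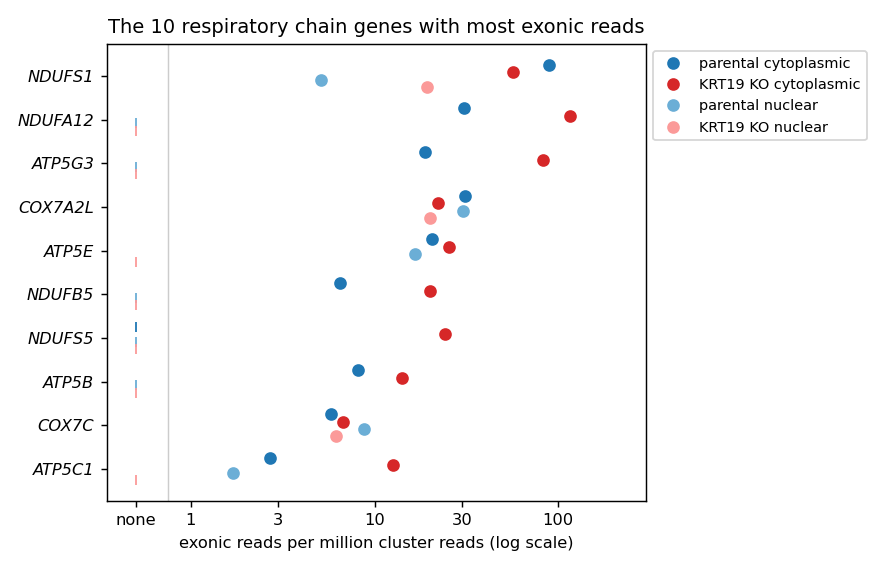
Exonic reads per 1000000 cluster reads (x axis, log scale) of the 10 respiratory chain genes with most exonic reads, 1 point per library, with ticks in the column marked none where a library had no exonic cluster. NDUFA12, ATP5G3, NDUFB5, NDUFS5 and ATP5B have points in the cytoplasm and none in the nuclei. NDUFS1, COX7A2L and COX7C have a point in all 4 libraries, and the nuclear points of COX7C depend on the transcript model.

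**Figure D3:**
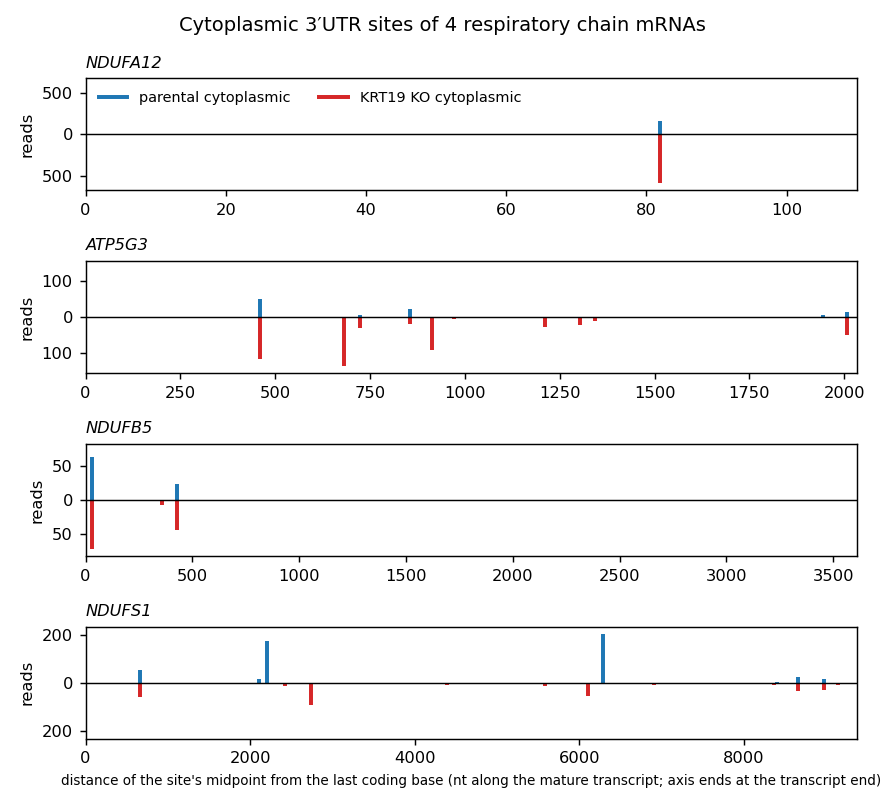
Reads at 3′UTR sites of 4 genes in the parental cytoplasm (blue, upwards) and KRT19 KO cytoplasm (red, downwards) against the distance of the site from the last coding base (x axis, nt). NDUFA12 has 1 site, with 162 and 591 reads, whereas NDUFS1 and ATP5G3 have 16 and 11 sites, many of them with reads in 1 cytoplasmic library only.

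Introns held most of the clusters. NDUFAF2, a complex I assembly factor and paralogue of NDUFA12, had 229 of the 1595 member clusters, 228 of them intronic, and 12.5% of all member reads. Its reads numbered 895, 601, 981 and 945 and came from 164 sites along a gene of 209 kb, and the strongest site held 7.45% of them. NDUFS4, an accessory subunit, followed with 92 clusters and 1379 reads, NDUFAF6 with 85 clusters, NDUFA10 with 71 clusters and 1256 reads, and NDUFV2, an iron-sulfur subunit, with 69 clusters and 1632 reads. Summed over the libraries NDUFV2 was the complex I subunit gene with most reads, at 446, 396, 414 and 376, and every cluster on it was intronic.

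The number of intronic clusters differed with intron length. It had a median of 3 over the 47 genes with under 10 kb of intron, 9 over the 24 genes with 10 to 30 kb and 37 over the 13 genes with more. Scaled to length, the median was 6.42 clusters per 10 kb of intron over 84 genes, with quartiles of 3.97 and 12.3 and a highest value of 41.9 for ATP5G3. No intronic cluster was found on 10 genes.

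**Figure D4:**
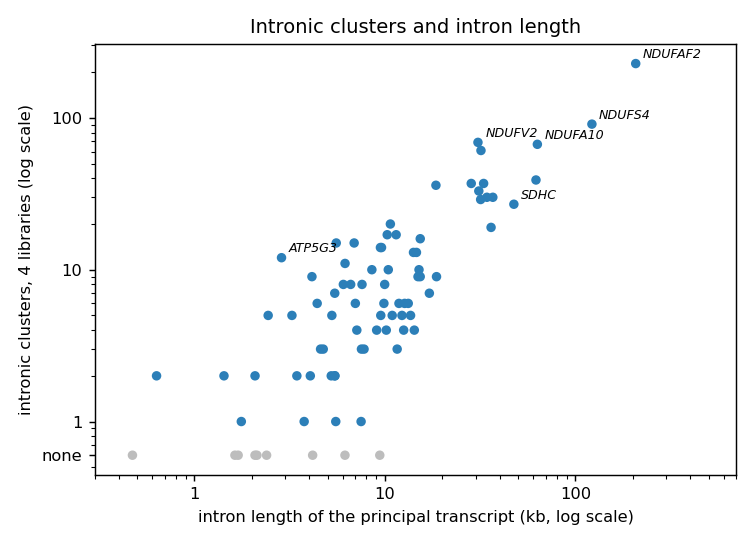
Intronic clusters summed over the 4 libraries (y axis, log scale) against the summed intron length of the principal transcript (x axis, kb, log scale), 1 point per gene and grey points for genes without an intronic cluster. NDUFAF2, with 209 kb of gene and 228 intronic clusters, lies at the upper right, and ATP5G3 lies above other genes with introns as short.

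Recurrence between libraries was low. Of 1195 member sites 907 (75.9%) were found in 1 library, 196 (16.4%) in 2, 72 (6.03%) in 3 and 20 (1.67%) in 4, and over all genes the shares were 77.4%, 15.5%, 5.46% and 1.68%. A site in 1 library had a median of 8 reads and a site in all 4 a median of 154.5. Of the 20 sites in every library, 16 were intronic, 3 were sites on SDHD in the class for nonsense-mediated decay transcripts, and 1 lay in a 3′UTR. NDUFV2 intron 1 held the one with most reads in sum, with 183, 129, 146 and 126 reads, or 33.0, 20.8, 41.3 and 38.7 RPM. NDUFA10 intron 5 had 94, 127, 147 and 84 reads. UQCRC2 encodes a core protein of complex III, and its intron 12 site had 123, 74, 32 and 25, higher in the cytoplasm than in the nucleus. The NDUFAF2 intron 1 site printed above was absent from the KRT19 KO cytoplasm, with 73, 0, 78 and 104 reads.

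SDHD, a membrane anchor of complex II, was the complex II gene with most reads in sum, at 262, 160, 205 and 296. Of its 61 clusters 47 were of the nonsense-mediated decay class and 29 lay past the annotated end of the gene. ATP5L, with 175 reads in 4 intronic clusters, was found in the parental cytoplasm and in no other library.

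KRT19 KO and parental cytoplasm were compared first over all reads of a gene, as the ratio of RPM. A gene entered with a cluster in both libraries and at least 50 reads together, and it was counted as higher or lower past 2-fold. Of 44 genes tested, 7 were higher and 6 lower in KRT19 KO, and the other 31 lay within 2-fold. Over all genes tested 20% were higher and 20.1% lower by the same rule. The median log2 ratio was −0.18 for members and −0.05 for all genes. The RNA level of these genes was not analysed here, so a change in binding and a change in RNA amount cannot be told apart.

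The 7 higher genes were NDUFS5, COX5B, NDUFA12, ATP5G3, ATP5G2, NDUFA8 and NDUFA5. NDUFS5 went from 6 reads in parental to 157 in KRT19 KO cells (log2 ratio 4.55, 23.4-fold, 10.5 to 64.6). All 6 parental reads were intronic, whereas 151 of the 157 came from the coding site described above and 6 were intronic. The NDUFS5 fold therefore rested on that coding site. COX5B, a subunit of complex IV, had 13 and 51 reads (1.81 log2, 3.504-fold, 1.88 to 7.02). NDUFA12 had 264 and 792 (1.42 log2, 2.68-fold, 2.33 to 3.09), and without its largest cluster in each library the log2 ratio was 0.82, inside 2-fold. ATP5G3 and ATP5G2 encode the same mature subunit c, and ATP5G3 had 249 and 709 reads (1.35 log2) and ATP5G2 60 and 154 (1.20 log2). The ATP5G2 rise was intronic, with 30 and 141 intronic reads, while its exonic reads went from 30 to 13. Exonic reads of ATP5G3 went from 104 to 514. NDUFA5, with 98 and 220 reads, lay at the 2-fold limit (1.00 log2). The lower genes began with NDUFS6, a zinc-binding subunit of complex I, with 53 reads in parental and 7 in KRT19 KO cells (−3.08 log2). NDUFAF7, a methyltransferase in complex I assembly, had 101 and 18 (−2.65 log2), and NDUFAB1, the mitochondrial acyl carrier protein, had 62 and 17 (−2.03 log2). UQCR10, ATP5F1 and UQCRC2 were lower with log2 ratios of −1.67, −1.42 and −1.24. In parental cytoplasm all reads of NDUFS6, NDUFAF7, NDUFAB1 and UQCRC2 were intronic, as were 133 of 141 for ATP5F1. These falls were therefore mainly of intronic reads, whose KRT19 KO over parental ratio was 0.544 over all named genes. UQCR10 differed, with 37 and 8 exonic reads and no intronic ones. By complex, 4 of the 16 tested complex I subunits were higher and 2 lower, 2 of the 4 complex III genes were lower and none higher, and no complex II gene passed 2-fold.

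A cluster was found in 1 cytoplasmic library only for 23 genes, 14 in KRT19 KO and 9 in parental cells. These were 16.7% and 10.7% of the members with a cytoplasmic cluster, beside 13% and 16% of all named genes. With at least 20 reads, those in KRT19 KO were ATP5J2, UQCRQ, NDUFAF4, NDUFB3, NDUFC1 and NDUFB1, with 91, 69, 28, 24, 24 and 20 reads, and those in parental were ATP5L with 175 and COX7B with 20. No fold is given for these genes.

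Restricted to exonic reads, summed member reads were 1589 in parental cytoplasm and 3105 in KRT19 KO cytoplasm, 1.75-fold higher as RPM (1.64 to 1.86), beside 1.63-fold for all named genes. Unique reads were 31.3% of member reads in parental cytoplasm and 45.2% in KRT19 KO cytoplasm, and 59.0% and 32.4% of member clusters had a single conversion location. The part of these differences in the summed folds was not tested. Counts of genes past 2-fold with unique reads are given in the section on processing. NDUFA12 and ATP5G3 together held much of the member difference, and the fold was 1.5 (1.41 to 1.61) without NDUFA12 and 1.27 (1.19 to 1.37) without both. Of 14 genes tested, 6 were higher and 1 lower, beside 41.9% higher and 8.52% lower over all genes tested. The median log2 ratio was 0.56 for members and 0.76 for all genes. Measured from that 0.76 shift, 4 members were higher and 3 lower. Intronic member reads numbered 4745 and 4159, a ratio of 0.783 (0.751 to 0.816) as RPM, and over all named genes that ratio was 0.544.

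The 6 higher genes were ATP5C1 (15 and 78 exonic reads, log2 ratio 2.22), ATP5G3 (104 and 514, 2.14), NDUFA12 (170 and 717, 1.91), COX5B (1.81), NDUFB5 (1.63) and NDUFB2, a small membrane-arm subunit (27 and 65, 1.10). Relative to all genes, ATP5C1, ATP5G3, NDUFA12 and COX5B were the 4 still higher. For NDUFB5 the log2 ratio was 0.17 once stop codon clusters counted as exonic. The NDUFB2 sites at chr7:140421586-140421616 (22 and 29 reads) and chr7:140421789-140421813 (0 and 36) lay outside the principal transcript of the newer annotation. The NDUFB2 value therefore depends on the transcript model. SDHD was the lower gene, with 45 and 16 exonic reads (−1.65 log2). NDUFS1 had 493 and 352 (−0.65 log2) and COX7A2L 173 and 138 (−0.49 log2), and these were the other two lower genes relative to the shift of all genes. Without its largest cluster in each library COX7A2L had a log2 ratio of 0.86, so its direction rested on those clusters. ATP5B and ATP5E had log2 ratios of 0.80 and 0.31.

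In the nucleus 43 genes were tested, of which 5 were higher and 7 lower in KRT19 KO, beside 13.7% higher and 17.3% lower over all genes. The median log2 ratio was −0.12 for members and −0.10 for all genes. NDUFB8 had 5 reads in parental and 68 in KRT19 KO nuclei (3.89 log2), NDUFB5 had 11 and 125 (3.63 log2), and NDUFAF5, an assembly factor that modifies NDUFS7, had 61 and 283 (2.34 log2). COX6B1 and ATP5C1 were also higher, with log2 ratios of 1.99 and 1.14. Of the NDUFAF5 reads in KRT19 KO nuclei 78 came from a single intron 7 site, which had 78, 0, 0 and 78 reads over the libraries. On the lower side, NDUFV3, an accessory subunit, had 73 and 11 reads (−2.61 log2), COX5A 44 and 8 (−2.34 log2) and NDUFB2 56 and 13 (−1.99 log2). ATP5E, ATP5G2, ATP5SL and NDUFA5 were lower as well, with log2 ratios of −1.34, −1.22, −1.15 and −1.12. Unique reads were 20.4% and 18.6% of member reads in the parental and KRT19 KO nuclei. They numbered 1 and 13 for NDUFB8, 3 and 22 for NDUFB5 and 17 and 49 for NDUFAF5. For NDUFV3, COX5A and NDUFB2 they numbered 16 and 1, 7 and 1, and 9 and 4. The intron-bound genes with many clusters lay within 2-fold, with NDUFAF2 at 981 and 945 reads, NDUFV2 at 414 and 376, NDUFA10 at 400 and 376, and NDUFS4 at 454 and 316.

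**Figure D5:**
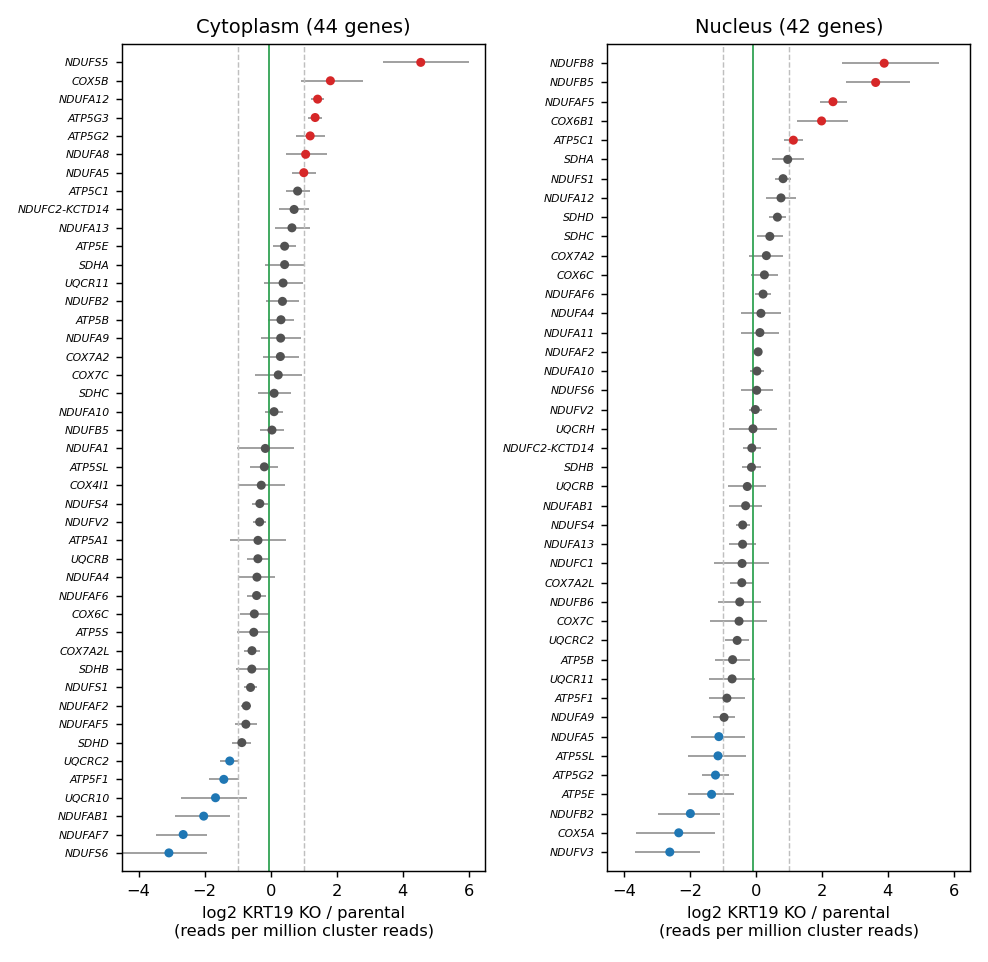
Log2 ratio of reads per 1000000 cluster reads, KRT19 KO over parental (x axis), for the 44 genes tested in the cytoplasm and 42 of the 43 tested in the nucleus, with 95% counting intervals. Dashed lines mark 2-fold, the green line the median of all genes tested, red points the 7 and 5 higher genes and blue points the 6 and 7 lower genes.

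Cytoplasm and nucleus were compared within each line, and these comparisons share their libraries with those between genotypes. In parental cells 5 of 43 genes were higher in the cytoplasm and 18 lower, beside 15.5% and 35.4% over all genes. In KRT19 KO cells 8 of 46 were higher and 22 lower, beside 22.3% and 41.7%. The median log2 ratios were −0.64 and −0.93 for members and −0.58 and −0.66 for all genes. Measured from the all-gene medians the members divided into 10 higher and 9 lower for the parental line and 10 higher and 15 lower for the knockout. Summed member RPM in the cytoplasm was 0.682 times (0.659 to 0.705) the nuclear level for the parental line and 0.628 times (0.608 to 0.650) for the knockout, where all named genes gave 1.01 and 1.12. MALAT1 was not lower in the cytoplasm, as given above. Clusters on mitochondrially encoded subunits held 14778 cytoplasmic and 29058 nuclear reads for the parental line, and 89573 and 93600 for the knockout. In each line the nuclear library held fewer cluster reads in total. The bearing of MALAT1 and of the mitochondrial reads on these ratios was not tested.

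ATP5G3 stood highest in both lines, with 249 cytoplasmic and 20 nuclear reads in parental cells (2.99 log2) and 709 and 20 in KRT19 KO cells (4.21 log2). NDUFB5 (2.71 log2) and NDUFAF7 (2.69 log2) came next in parental cells, each resting on 10 or 11 nuclear reads, and NDUFA5 (2.60 log2) and NDUFA8 (2.01 log2) in KRT19 KO cells. NDUFA12 was higher in the cytoplasm in both lines, at 1.26 and 1.93 log2. NDUFA11, a membrane-arm subunit, was low in the cytoplasm in both, with 5 and 55 reads in parental (−4.11 log2) and 7 and 55 in KRT19 KO cells (−3.91 log2). NDUFA9 (−3.19 log2) and NDUFC2-KCTD14 (−2.59 log2) were the next lowest in parental cells. NDUFS6 (−4.30 log2) was the lowest in KRT19 KO cells and NDUFB8 (−3.56 log2) the third lowest. In complex II, 3 of the 4 genes were lower in the cytoplasm in parental cells and 4 of 4 in KRT19 KO cells.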

How the data were processed

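HNRNPK PAR-CLIP libraries of 4 conditions were analysed, with 1 library per condition, and the 17 RNA-seq samples of the series were not analysed here. According to the study's methods the authors trimmed reads, aligned them to hg19 and called clusters with PARalyzer through PARpipe. Each deposited cluster list gives read counts, T-to-C conversion fractions, a mode score, log10 values not used here, the sequence and an annotation class. Replicates were not pooled. Reads were summed per gene and scaled to reads per 1000000 cluster reads (RPM) of the library. Genes with a cluster in both libraries and at least 50 reads together were compared, past 2-fold in either direction. Intervals are exact at 95% (Clopper-Pearson for shares, conditional binomial for ratios). Clusters overlapping by 1 nt on a strand were merged into sites. Named genes were the 10 with most exonic reads, the 5 with most clusters, the 3 highest and 3 lowest of each comparison, the leading gene of each complex and the members of counts of 5 or fewer, apart from items not reported here, and other genes named were chosen after their values were seen. The members and lists were chosen with earlier results of these data known. Of the 86 genes 85 matched GENCODE v44 lifted to GRCh37. All 1595 member cluster sequences equalled GRCh37, and 11 of them (0.330% of reads) had another exact copy. The calculations used Python 3.11.15, pandas 2.3.3, numpy 2.4.6 and scipy 1.17.1 and were tested on simulated data.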

Additional observations from a re-analysis of the deposited data

Results flagged for a closer look

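ATP5G2, one of the genes for subunit c of ATP synthase, and NDUFA5, an accessory subunit of complex I, were past 2-fold in opposite directions in the fractions. For ATP5G2 the log2 ratio of KRT19 KO over parental was 1.20 in the cytoplasm (154 against 60 reads) and −1.22 in the nucleus (72 against 183). A single intron 4 site, chr12:54060761-54060796, held 54 reads in the KRT19 KO cytoplasm, 131 in the parental nucleus and 0 in the other libraries. For NDUFA5 the ratios were 1.00 (220 against 98 reads) and −1.12 (19 against 45). With 1 library per condition the difference between fractions was not tested for either gene.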

How the results depend on the processing

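With 1 library per condition no left-out replicate could be tried, and no paired analysis was possible because each condition has 1 sample and no replicate numbers are shared. Shares that moved past their counting interval are given first. With clusters of at least 10 reads the member share of reads was 0.112% in parental cytoplasm and 0.114% in KRT19 KO cytoplasm, the exonic share of reads was 25.2% and 44.2% there and 4.25% in the KRT19 KO nucleus, and the T-to-C share was 62.2%, 58.1%, 73.3% and 75.8% in the order used above. With clusters of at least 2 conversion locations, 45 genes were found in the parental cytoplasm and 36 in each nucleus. The member share was then 0.108%, 0.118% and 0.176% in the first 3 libraries, the exonic share 25.6%, 42.6%, 7.02% and 3.33%, the T-to-C share 62.8%, 60.5%, 69.6% and 74.9%, and CCC was in 50% of exonic clusters of the parental nucleus. Without mitochondrial clusters and the largest cluster of each library the member share was 0.133% and 0.131% in the cytoplasm and 0.203% in the KRT19 KO nucleus. With unique reads the exonic share of the KRT19 KO cytoplasm was 42.4%.

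Genes past 2-fold numbered 13 in the KRT19 KO against parental cytoplasm, 7 for exonic reads and 12 in the nucleus. With unique reads these counts were 6, 3 and 1, with a minimum of 20 reads 21, 15 and 19, with a minimum of 200 reads 6, 2 and 3, and without each gene's largest cluster in each library 8, 3 and 6. Between fractions 23 were past 2-fold for the parental line and 30 for the knockout, and these became 10 and 17 with unique reads and 10 and 12 with a minimum of 200 reads. In KRT19 KO cells the count was 19 with at least 2 conversion locations. Fewer genes were tested with unique reads or a higher minimum. Leaving out NDUFA12 gave an exonic fold of 1.5 and leaving out NDUFA12 and ATP5G3 gave 1.27. These omissions, the stop codon class and the removal of clusters with another genome copy were chosen after seeing the data, and the last of these kept each count of genes. Of the 96 summary values recomputed, 47 moved. Single genes were followed for the 3 highest and 3 lowest of each comparison and for all 14 of the exonic one. A gene that was no longer tested in a setting gave no value there. Of the 214 values obtained 35 moved, and none of a gene past 2-fold changed sign. Genes that dropped out could not be counted either way.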

Other observations

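Of 60 other genes of the pathway listed for this comparison (mitochondrially encoded subunits, assembly factors, electron carrier and regulators), 54 had a cluster, among them 43 of the 47 encoded in the nucleus. Of those encoded in the nucleus, 6 of 32 tested were higher and 7 lower in KRT19 KO cytoplasm, beside 20% and 20.1% of all genes. For exonic reads 5 of 15 were higher and 1 lower, beside 41.9% and 8.52%. In the nucleus 6 of 31 were higher and 1 lower, beside 13.7% and 17.3%. With the mitochondrially encoded genes included the counts were 10 higher and 8 lower of 41 in the cytoplasm, 9 and 2 of 24 for exonic reads and 15 and 1 of 42 in the nucleus. Between cytoplasm and nucleus 7 of 30 nuclear-encoded genes were higher and 11 lower in parental cells, beside 15.5% and 35.4%, and 7 of 32 higher and 11 lower in KRT19 KO cells, beside 22.3% and 41.7%.

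CYCS, which encodes cytochrome c, had 13 reads in parental cytoplasm and 890 in KRT19 KO cytoplasm and no cluster in the nuclei. CYC1, the cytochrome subunit of complex III, had 154, 853, 6 and 127 reads. COX20 and COX11, assembly factors of complex IV, had 1631, 2784, 164 and 129 reads and 1439, 2272, 16 and 100 reads, higher in the cytoplasm of both lines. TFAM, which packages and transcribes mitochondrial DNA, had 3378, 3950, 138 and 170. Clusters on the mitochondrially encoded subunits held 14778, 89573, 29058 and 93600 reads, of which MT-ND2 accounted for 0, 67698, 3788 and 42100. These counts are not scaled to depth, and each nuclear library held fewer cluster reads than the cytoplasmic library of the same line.

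Of 97 protein-coding genes whose present name fits the rule, 11 had no cluster under any of their names: ATP5ME, ATP5MF-PTCD1, ATP5MGL, COX4I2, COX6A2, COX7A1, COX8C, NDUFA4L2, NDUFAF8, NDUFB11 and UQCRHL. Another 3, ATP5IF1, ATP5MJ and ATP5MK, appeared under older names outside the rule.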
